A study of Rattus norvegicus with 90 samples.

Results

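The comparison described here is that of the high with the low dose of thioacetamide in rat liver 24 h after injection. Its members are the 10 libraries labelled liver and 24 h, 5 of the low dose (25 mg/kg) and 5 of the high dose (100 mg/kg), of 90 libraries in the series. No vehicle library entered the test. All animals were male Sprague-Dawley rats, bought at 10 weeks of age, that carried a jugular catheter. Rats of the 24 h groups were injected intraperitoneally once at 5 pm, and they went without food for the 8 h before collection. The vehicle rats, used here as a background, received saline at 3 ml/kg. No label pairs a low-dose with a high-dose rat. The deposited tables list 40071 transcripts by Ensembl identifier and do not pair them with genes, so transcripts are described by their levels, by the organs in which they are found, and by their values in other groups. Gene lists, cell type markers, and sequences were not analysed here.

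Thioacetamide is an organosulfur compound that injures the liver once hepatocytes have oxidized it to reactive products, which bind proteins and lipids. The oxidizing enzymes are most abundant around the central vein, which is where the injury is best known. Hepatocytes make most of the RNA of a liver and spend much of it on plasma proteins and metabolic enzymes that other organs hardly make. A sample of whole liver also holds endothelial, stellate, biliary, and immune cells, so fewer cells of a type and less RNA per cell cannot be told apart in these data.

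Between the doses, calls of a lower level after the high dose were most frequent among transcripts restricted to liver (162 of 599 tested), and calls of a higher level among transcripts scarce in healthy liver (156 of 1745 tested). In both classes most transcripts did not pass the test. The counts of the high-dose libraries alone could admit a transcript, so some scarce in healthy liver may have been tested because they rose. Without the filter on low counts, 126 of 3758 transcripts scarce in healthy liver (3.35%) were called higher, against 1.39% of all. Of the transcripts, 17101 had enough counts to be tested, and of these 1128 (6.6%) were called, which required at least a 1.82-fold difference and an adjusted p-value up to 0.01 by the edgeR quasi-likelihood test. Of these, 472 (2.76%) were higher and 656 (3.84%) lower after the high dose. The median size was 2.40-fold for those higher and 2.33-fold for those lower. Differences of at least 4-fold were found for 61 and 60 transcripts, and of at least 8-fold for 16 and 7. The median level was 5.41 TPM (a level scaled by transcript length and library) for those higher, 24.1 TPM for those lower, and 6.14 TPM for all tested.

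**Figure D1:**
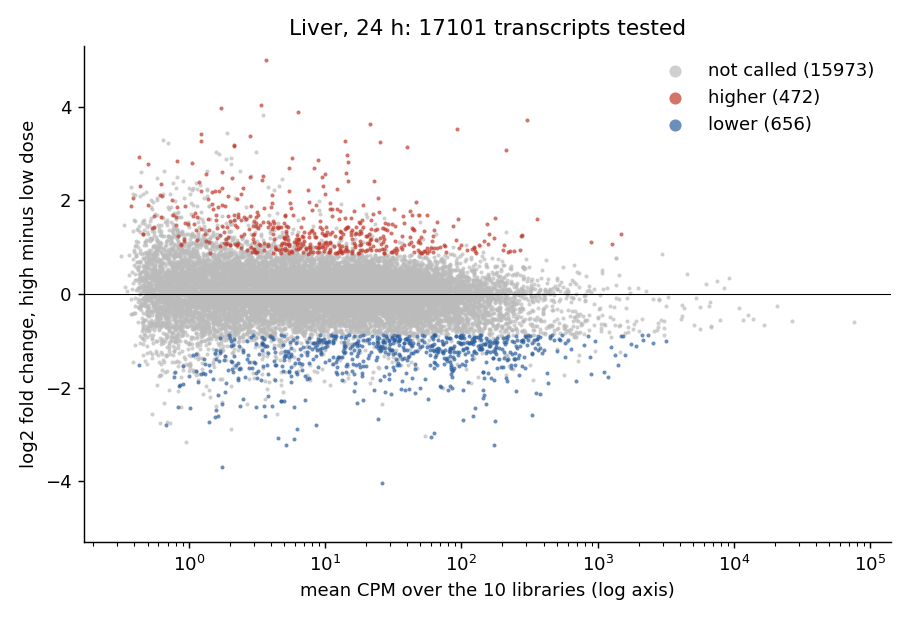
Each point is a transcript tested, with its mean level in CPM (counts scaled to library size) over the 10 libraries on a log axis and its log2 fold change, high minus low dose. Red points mark the 472 called higher and blue points the 656 called lower, and the blue points lie at higher levels (median 24.1 TPM) than the red ones (5.41 TPM). The single point at the upper edge, at 5, is drawn there in place of its fitted value.

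Among the calls, the 5 high-dose values lay wholly above the 5 low-dose values for 419 of 472 transcripts (88.8%), against 9.73% of all transcripts tested, and wholly below for 616 of 656 (93.9%), against 11.4%. The calls used the same values, so these shares only describe them. The difference reached beyond the calls. Without adjustment, 7198 transcripts (42.1%) had a p-value under 0.05, and 1594 transcripts passed the adjusted p-value but missed the limit on the fold change. The median log2 fold change over all transcripts was 0.03.

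How many transcripts were called depended on single libraries. Leaving out MS-7 (low dose) left 629 calls, MS-26 (high dose) 653, MS-6 (high dose) 688, and MS-2 (low dose) 711, with the most, 1455, found without MS-91 (high dose). Without MS-23 (low dose) 299 were higher. Without both MS-6 and MS-26, which were farthest from the low-dose group, 291 calls were left, 68 higher and 223 lower. On log2(TPM + 1) with limma, 480 were higher and 339 lower, so the excess of lower calls turned around, and on log2(TPM + 0.1) 705 and 390. In these fits the median of all transcripts moved to 0.18 and 0.24 on the log2 scale. Libraries numbered up to 10 (3 low, 2 high) and above 20 (2 low, 3 high) gave 0 calls each by edgeR when tested alone, with 5340 and 3788 transcripts at an unadjusted p-value under 0.05. All 472 and 656 called transcripts differed in the same direction within either set, with median log2 fold changes of 1.38 and −1.37 for the lower numbers and 1.15 and −1.15 for the higher ones, but these libraries had also chosen the calls.

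The 10 libraries held between 19623960 and 32910696 estimated counts, and neither the total counts (difference in means, high minus low, −2091430, adjusted p = 0.452) nor the number of transcripts detected (473 more on average after the high dose, adjusted p = 0.286) passed the exact permutation test. The share of counts on genomic intervals, which are listed beside the transcripts, was 5.91% ± 0.727 (SD, n = 5) after the low and 9.44% ± 3.23 (SD, n = 5) after the high dose (exact permutation p = 0.0159, two-sided), with the highest value, 14.8%, in MS-91. The difference in means was 3.53 points, and 2.19 points without MS-91, and leaving out a single library gave an exact permutation p of up to 0.0397. With this share as a term in the fit, 1520 transcripts were called, 637 higher and 883 lower. Vehicle library MS-1 and MS-9, a low-dose library of 8 h, agreed within 1 count for 99.97% of transcripts, against at most 4.68% for any pair among the 10 libraries compared. Values of MS-1 are therefore left out of the vehicle ranges given here, and those of 8 h are also given without MS-9 where that matters.

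Libraries were farther apart across the doses than within a dose. Over 8851 transcripts with at least 10 CPM, the median absolute log2 difference was 0.160 between pairs of low-dose libraries, 0.189 between pairs of high-dose libraries, and 0.301 across the doses. The nearest pair across the doses differed by 0.199, which is within the range of high-dose pairs (0.124–0.262). High-dose libraries were not equally far from the low dose. Relative to the mean of the low-dose libraries, the median log2 level of the transcripts called lower was −1.55 in MS-6, −1.48 in MS-26, −1.07 in MS-3, −0.97 in MS-24, and −0.82 in MS-91, and that of the transcripts called higher was 1.38, 1.35, 1.08, 0.94, and 0.76 in the same order. MS-5 was the low-dose library nearest to the high dose, at −0.25 and 0.24. In the 4 vehicle libraries the same medians were 0.75 to 0.95 and −0.97 to −0.77, so on this measure the low dose lay between vehicle and high dose in both sets, although the low-dose libraries also served in the calls.

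The spread between animals was compared by dose. The median SD of the log2 level was 0.177 after the high and 0.154 after the low dose, and the larger SD was that of the high dose for 59.1% of the 8851 transcripts. Of these 8851, 473 were called lower, with a median SD of 0.412 after the high and 0.231 after the low dose. For the 213 called higher it was 0.359 and 0.330. The calls came from these same libraries, so the SDs of the called sets only describe them. The part of the level of a transcript in its SD was not tested.

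Transcripts were next grouped by where they were found in healthy rats, using the vehicle libraries of liver, kidney, and heart at 8 h, none of which is among the 10 compared. Liver-restricted transcripts had at least 1 TPM in liver and at least 10-fold more there than in kidney and heart. Those in all 3 organs were within 3-fold of both other organs, and those low in liver had at most 1 in 10 of the higher level of the other organs. The label of the 10 libraries held against this measure: liver-restricted transcripts took 25.7 to 37.3% of transcript TPM in them, 0.256 to 2.37% in the kidney libraries of 24 h, and 0.0822 to 0.117% in the vehicle hearts of 24 h.

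Of 599 liver-restricted transcripts tested, 162 (27.05%) were lower after the high dose and 5 (0.835%) higher, with a median log2 fold change of −0.79. Of 4128 transcripts low in liver, 1745 were tested, and the counts of the high-dose libraries alone could admit them. Of these 1745, 156 (8.94%) were higher and 33 (1.89%) lower, with a median of 0.35. Of 7363 transcripts in all 3 organs, 80 (1.09%) were higher and 124 (1.68%) lower, with a median of 0.02. Over all transcripts tested, 2.76% were higher and 3.84% lower. Liver-restricted transcripts thus made up 24.7% of all lower calls, and transcripts low in liver 33.1% of all higher calls.

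**Figure D2:**
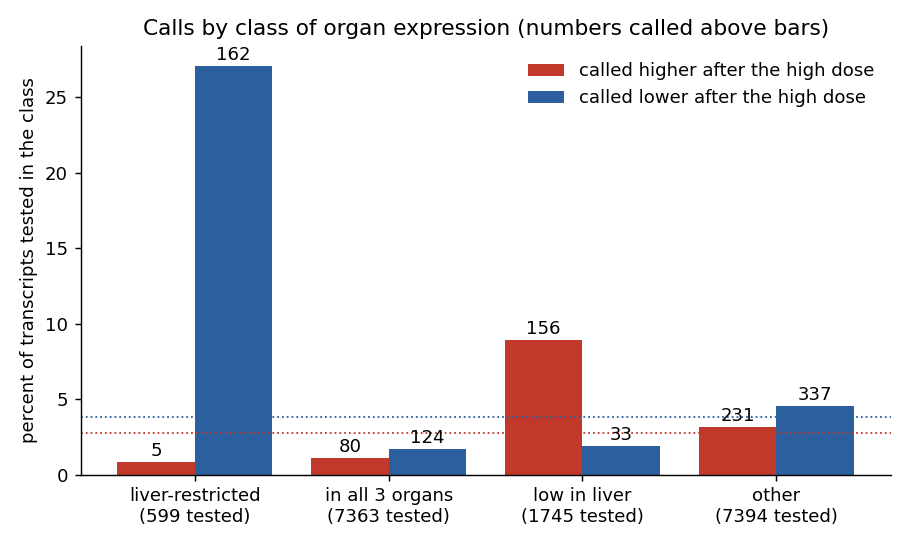
Bars give the percent of tested transcripts called higher (red) or lower (blue) after the high dose in 4 classes of organ expression, with the number called above each bar. Dotted lines mark the shares over all transcripts, 2.76% higher and 3.84% lower. Lower calls reach 27.05% in the liver-restricted class and higher calls 8.94% in the class low in liver.

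The classes differ in level, so the shares were also taken within ranges of mean TPM. Liver-restricted transcripts were called lower in 21.7% of cases between 1 and 10 TPM, 32.6% between 10 and 100 TPM, and 25.2% at 100 TPM or more. Transcripts in all 3 organs were called lower in 1.43, 1.73, and 2.67% of cases in these ranges. Transcripts low in liver were called higher in 12.4% (100 of 804) and 12.9% (19 of 147) of cases in the first and second range. For transcripts in all 3 organs these shares were 0.405 and 1.65%. At 100 TPM or more, 4 of 11 transcripts low in liver were called higher. Transcripts below 1 TPM were not split by class. In each range the liver-restricted class therefore held a larger share of lower calls than the class of all 3 organs. Over all classes, lower calls were most frequent between 100 and 1000 TPM, with 128 of 977 transcripts (13.1%) lower and 24 higher. Below 10 TPM the balance was the other way, with 66 of 2627 higher and 34 lower under 1 TPM and 243 of 7767 higher and 185 lower from 1 to 10 TPM. By length, lower calls were most frequent between 1000 and 2000 bases (4.98%) and least frequent below 500 bases (2.48%).

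The shares of the classes that were called moved with the settings. Without MS-6 and MS-26, 9.98% of the liver-restricted transcripts were called lower, against 1.27% of all transcripts in that fit, and 1.18% of those low in liver higher, against 0.387% of all. Leaving out single libraries gave 14.6 to 33.9% (lowest without MS-7) and 3.94 to 10.5% (lowest without MS-7). Over all transcripts these fits gave 2.24 to 4.87% lower and 1.37 to 3.48% higher. Without a filter on low counts, 3.35% of the transcripts low in liver were called higher, against 1.39% of all.

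A measure per library needs no calls. Liver-restricted transcripts took 36.5% ± 0.778 (SD, n = 5) of transcript TPM after the low dose, from 35.2 to 37.3%, and 28.7% ± 2.002 (SD, n = 5) after the high dose, from 25.7 to 30.5%. The doses did not overlap, and the difference in means of −7.74 percentage points had an exact permutation p of 0.00794 (two-sided), the smallest that 5 against 5 can give, and 0.0119 after adjustment over the 3 classes. Within the libraries numbered up to 10 the difference was −6.96 points and within those above 20 it was −8.57 points. Transcripts in all 3 organs took 33.1% ± 1.92 and 41.1% ± 2.46 (SD, n = 5 each; exact permutation p = 0.00794, adjusted 0.0119). Transcripts low in liver took 0.859% ± 0.0780 and 1.26% ± 0.274 (SD, n = 5 each; exact permutation p = 0.0159, adjusted 0.0159), with an overlap between the doses. With a 5-fold limit for this last class the exact permutation p was 0.0714.

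Shares of the estimated counts, which weight long transcripts more, gave the same directions and placed the vehicle libraries. On liver-restricted transcripts, the low-dose libraries had 42.5% (MS-2), 42.7% (MS-5), 42.6% (MS-7), 43.7% (MS-22), and 43.1% (MS-23). The high-dose libraries had 37.3% (MS-3), 32.1% (MS-6), 35.9% (MS-24), 40.7% (MS-91), and 31.5% (MS-26). The low-dose libraries thus lay close together, and the high-dose libraries were spread more widely, all of them lower. The 4 vehicle libraries had 49.5 to 53.996%. In TPM the vehicle libraries ranged from 31.05 to 44.4%. This range overlapped the low dose and lay above the high dose, which reached 30.5%. Of the vehicle libraries, MS-19 and MS-21 had 20.6 and 25.0% of their counts on intervals, and the part of this in their TPM values was not tested.

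**Figure D3:**
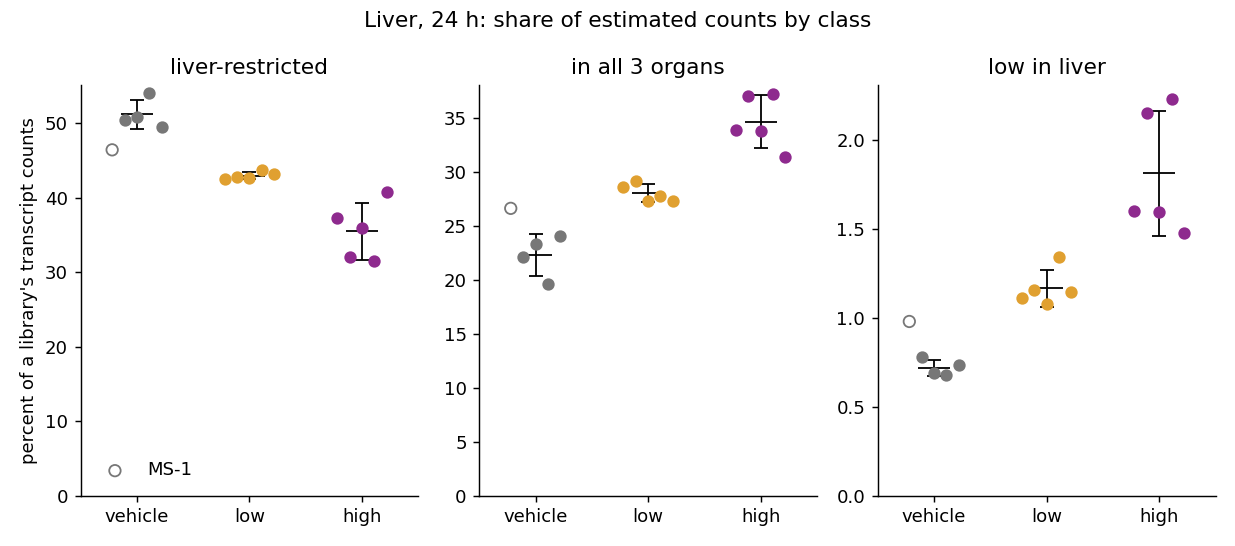
Each point is a liver library of 24 h, and the vertical axes give the percent of its transcript counts on liver-restricted transcripts, on transcripts found in all 3 organs, and on transcripts low in liver, by group. Bars show the mean and SD without MS-1 (open circle, a vehicle library that nearly copies a treated one). In the left panel vehicle lies at 49.5 to 53.996%, the low dose at 42.5 to 43.7%, and the high dose at 31.5 to 40.7%.

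The transcripts called lower took 7.69 to 9.83% of transcript TPM in the low-dose libraries and 3.45 to 5.37% in the high-dose libraries, and the 4 vehicle libraries, at 7.65 to 10.8%, overlapped the low dose. The transcripts called higher took 0.568 to 0.803% and 1.18 to 2.74%, against 0.165 to 0.250% in the vehicle libraries. The lower calls thus concerned much more of the RNA than the higher calls did. The 10 largest losses in TPM among lower calls of at least 2 CPM without overlap between the doses made up 29.9% of the summed loss of all lower calls, and 7 of them were liver-restricted. The 10 largest gains, chosen likewise, made up 38.9% of the summed gain of all higher calls, and 3 of them were liver-restricted. Over all calls, liver-restricted transcripts were 24.7% of those lower and 1.06% of those higher. Ranking by TPM favours abundant transcripts, so the counts of 7 and 3 only describe these lists.

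The same doses were compared in liver at 8 h, in other rats that were injected at 9 am and had no food. There, 403 of 16818 transcripts (2.4%) were called, 291 higher (1.73%) and 112 lower (0.666%), and leaving out a single library gave 97 to 512 calls. The sets called at 24 h differed in what they did at 8 h. Of 449 transcripts called higher at 24 h and tested at 8 h, 404 (89.98%) had a log2 fold change above 0 at 8 h, with a median of 0.80, and 78 were called higher and 2 lower. Of 652 transcripts called lower at 24 h, 357 (54.8%) were below 0 at 8 h, with a median of −0.04, and 19 were called lower and 1 higher. Over all transcripts tested at both times 49.98% were above 0. Without MS-9 the shares were 90.3 and 55.7%. Leaving out MS-6 and MS-26 from the 24 h calls gave 86.2 and 51.1%.

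**Figure D4:**
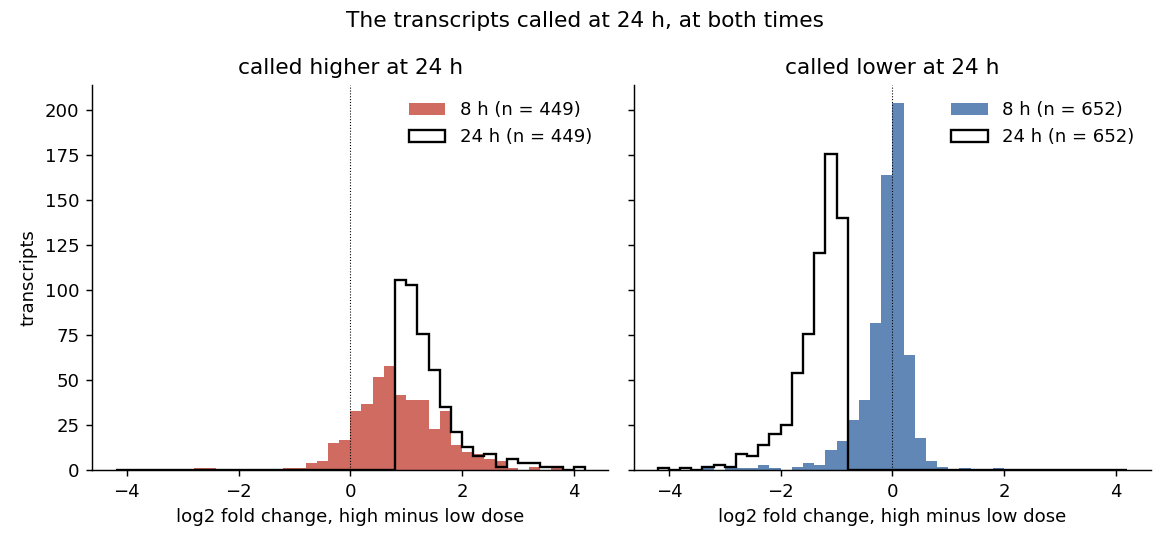
Histograms of the log2 fold change, high minus low dose, for the transcripts called higher (left) and lower (right) at 24 h, with the values at 8 h filled and those at 24 h as an outline. Values beyond 4.1 in size are drawn in the last bin. At 8 h the first set lies mostly above 0 (median 0.80) and the second is centred near 0 (median −0.04).

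Whether the dose effect differed between the times was tested as an interaction in 20 libraries. It passed an adjusted p-value of 0.01 by edgeR for 1334 of 18103 transcripts (7.37%), 473 with a larger value at 24 h (2.61%) and 861 with a smaller one (4.76%). Among the 472 transcripts called higher at 24 h, 30 (6.36%) passed, and among the 656 called lower, 351 (53.5%) passed. Without MS-9 these were 23 and 276. The calls came from the same 24 h libraries, which sets the direction of these differences and raises their number. The 351 had a median log2 fold change of −1.23 at 24 h and of 0.08 at 8 h.

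In the kidneys at 24 h, which came from the same rats, the doses differed for 72 of 18844 transcripts (0.382%), 52 higher (0.276%) and 20 lower (0.106%). Of 445 transcripts called higher in liver and tested in kidney, 22 were called higher there and 356 were above 0, with a median log2 fold change of 0.32. Of 576 called lower in liver, 2 were called lower in kidney and 80.9% were below 0, with a median of −0.22. Over all transcripts tested in both organs 51.9% were above 0 in kidney. One low-dose kidney library, MS-37, had 2.37% of its transcript TPM on liver-restricted transcripts, against 0.357 to 0.443% in the other low-dose and 0.398 to 0.660% in the high-dose kidneys. Without MS-37, 410 of 578 transcripts called lower in liver (70.9%) were below 0 in kidney, with a median of −0.18. For the liver-restricted ones among them it decided the direction, with 80 of 96 below 0 (median −0.45) with MS-37 and 40 of 96 (median 0.17) without it. For the rest, 386 of 480 were below 0 with MS-37 and 370 of 482 without it. Of the transcripts called higher in liver, 352 of 447 were above 0 without MS-37. The difference between the organs passed for 149 of 20153 transcripts (0.739%), 62 with a larger value in liver (0.308%) and 87 with a smaller one (0.432%), and 36 of the 472 and 61 of the 656 were among them. The liver libraries of this test had also chosen these calls, which sets the direction of the differences and raises their number. Leaving out a library gave 52 to 317 transcripts that passed. This test takes the organs as independent, since the labels do not state which liver and kidney came from one rat. Without the low-dose library MS-35 the kidney calls rose to 166, and without any other of the 10 they fell to 13 to 47.

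Comparing low dose with vehicle, which shares the low-dose libraries, the transcripts called higher between the doses had a median log2 fold change of 1.08 and those called lower of −0.85. Beside these, their medians between the doses were 1.21 and −1.22. With MS-1 among the vehicle libraries, the first pair was 0.41 and −0.68.

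Of the 343 higher and 575 lower transcripts with at least 2 CPM and no overlap between the doses, those with the largest change on each scale are named. ENSRNOT00000071487 (2424 bases) had the largest rise. It had 0 counts in all 5 low-dose libraries and in 4 vehicle libraries, and 4.39 (MS-3), 10.3 (MS-6), 5.76 (MS-24), 1.11 (MS-91), and 15.2 CPM (MS-26) after the high dose. Its mean of 7.35 CPM was at least 51.9-fold higher than the floor set by 3 counts per low-dose library (adjusted p = 0.00246, edgeR). At 8 h its low-dose libraries ranged from 0 (MS-94) to 9.55 CPM, and its high-dose libraries from 0.108 (MS-27) to 10.7 CPM. Its log2 fold change there was 0.26 ± 0.95 (SE). The times differed (adjusted p = 0.00765, edgeR), or not past the threshold without MS-9 (adjusted p = 0.0126, edgeR). In healthy rats at 8 h it was at 4.94 TPM in heart and 0 in liver and kidney. No other called transcript was at 0 in all libraries of a dose.

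The largest gain in TPM was that of ENSRNOT00000073951 (1369 bases), a liver-restricted transcript and so 1 of the 5 of its class called higher. It had 794, 1019, 869, 885, and 733 CPM in the low-dose libraries MS-2, MS-5, MS-7, MS-22, and MS-23. In the high-dose libraries MS-3, MS-6, MS-24, MS-91, and MS-26 it had 2077, 2933, 1547, 1706, and 2216 CPM. All high-dose values were above all low-dose values, and the 4 vehicle libraries were below both at 394 to 532 CPM. Its log2 fold change was 1.28 ± 0.17 (SE; adjusted p = 0.00124, edgeR) at 24 h. At 8 h it was 0.67 ± 0.22 (SE; adjusted p = 0.0703, edgeR), and 0.92 without MS-9. There MS-9 had 1544 CPM, the other low-dose libraries 681 to 925 CPM, and the high-dose libraries 1196 to 1815 CPM. The difference between the times did not pass (adjusted p = 0.212, edgeR, and 0.433 without MS-9).

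ENSRNOT00000001876 (1086 bases), also liver-restricted, had the largest fall. Its low-dose libraries had 24.1 (MS-2), 12.1 (MS-5), 34.2 (MS-7), 66.9 (MS-22), and 110.0 CPM (MS-23), and its high-dose libraries 4.003 (MS-3), 5.01 (MS-6), 2.84 (MS-24), 0.758 (MS-91), and 2.31 CPM (MS-26). It varied widely among the low-dose rats and among the 4 vehicle rats, from 31.9 to 291.1 CPM, and the doses did not overlap. Its log2 fold change was −4.04 ± 0.63 (SE; adjusted p = 0.00181, edgeR). Within the libraries numbered up to 10 this was −2.38, and within those above 20 it was −5.45. The transcript had also been lower at 8 h, by −3.25 ± 0.50 (SE; adjusted p = 0.00343, edgeR). With the interval share as a term the adjusted p-value at 24 h was 0.0129.

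The largest loss in TPM was that of ENSRNOT00000008840 (486 bases), a liver-restricted transcript that went from 6707 to 2634 TPM. It had 2092, 1853, 2204, 2068, and 2193 CPM in the low-dose libraries MS-2, MS-5, MS-7, MS-22, and MS-23. In the high-dose libraries it had 970.8 (MS-3), 302.5 (MS-6), 1094 (MS-24), 889.6 (MS-91), and 381.9 CPM (MS-26), which is lowest in the same 2 libraries that were farthest from the low dose over all calls. The vehicle libraries had 2689 to 3198 CPM. Its log2 fold change was −1.52 ± 0.33 (SE; adjusted p = 0.00588, edgeR), and the call was lost without MS-2, MS-7, MS-22, MS-23, or MS-26, with adjusted p-values of 0.0129 to 0.0157. At 8 h its log2 fold change was −0.04 ± 0.12 (SE; adjusted p = 0.86, edgeR). The difference between the times was −1.51 ± 0.36 (SE; adjusted p = 0.00822, edgeR, and 0.0146 without MS-9).

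**Figure D5:**
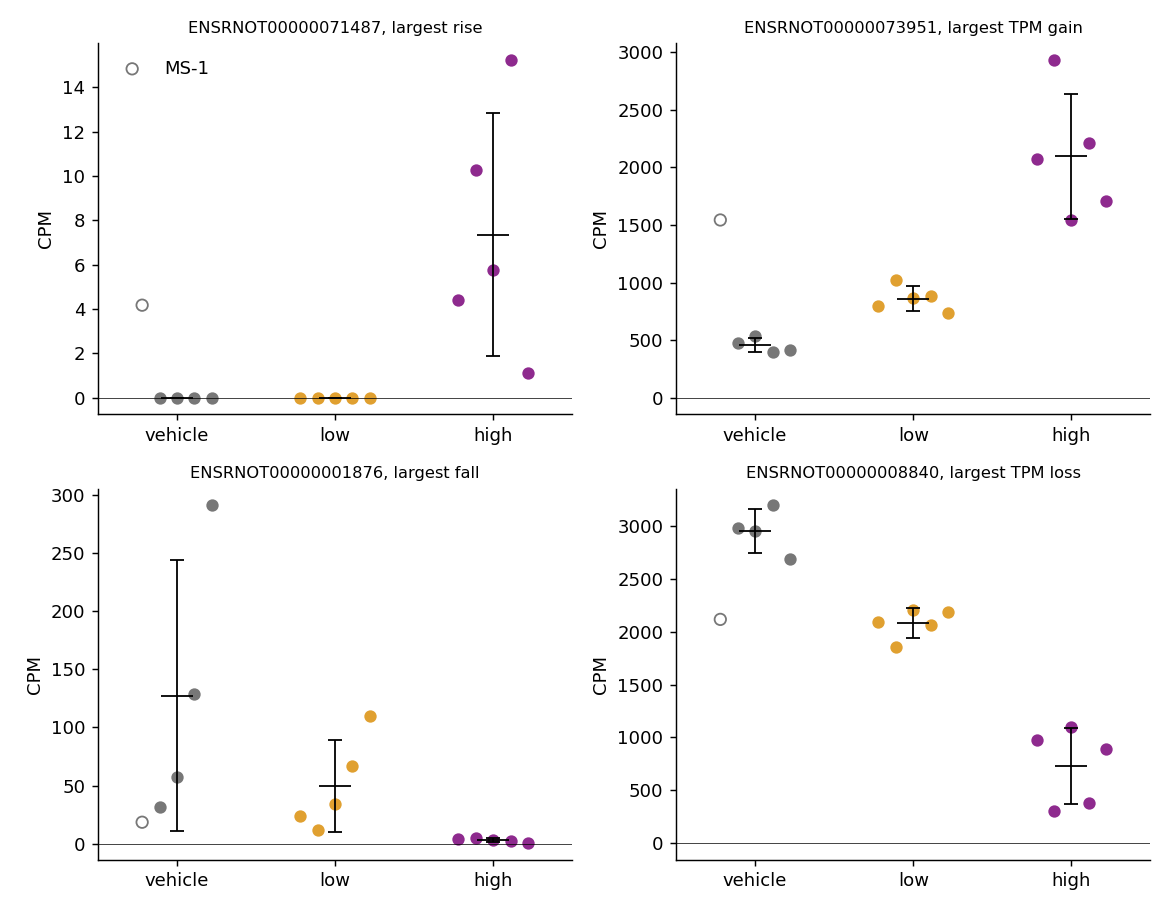
Levels in CPM of the 4 named transcripts in each liver library of 24 h, by group, with the mean and SD without MS-1 (open circle). The doses do not overlap in any panel: the upper transcripts are highest after the high dose, and the lower transcripts are lowest, at 0.758 to 5.01 CPM on the left and 302.5 to 1094 CPM on the right.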

How the data were processed

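The authors made stranded poly-A libraries, sequenced paired ends of 75 bases, and quantified them with kallisto 0.42.2 (per the submitters' processing notes) against the Ensembl rat transcriptome (Rnor_6.0). They deposited an estimated count and a TPM value for each of 65166 targets. The deposited estimated counts are not normalized, and the deposited TPM values are scaled by target length. The 25095 genomic intervals among the targets, which the methods of the study do not describe, were left out of the tests. Nothing in these values shows reads shared by similar transcripts, so isoforms and paralogs are uncertain.

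Estimated counts of transcripts were rounded and tested in R 4.3.3 with edgeR 4.0.16 (filterByExpr, TMM, quasi-likelihood test, Benjamini-Hochberg adjustment), 5 libraries against 5. The filter left out 22970 transcripts, 11140 of them at 0 in all 10 libraries. Calls required an adjusted p-value of at most 0.01 and a natural-log fold change of at least 0.60 in size (0.866 on the log2 scale), the limits of the study, which set the second on another effect size. Interactions had no limit on size. Levels in CPM use TMM scaling. Class shares were compared by exact permutation tests over 252 splits, two-sided. The scripts were tested on simulated data. Alternatives used DESeq2 1.42.0, limma 3.58.1, other scaling, filters, pseudocounts, samples, and terms. The tables were made with Python 3.11.15, numpy 2.4.6, and pandas 2.3.3, and the plots with matplotlib 3.10.9.

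Groups came from the labels. Replicates are separate rats, per the methods of the study. The comparison, the classes, and the tests were chosen with earlier results of these data known. With no gene symbols, the rule for naming was, in each direction, the transcript with the largest log2 fold change and the one with the largest difference in mean TPM, among calls with at least 2 CPM and no overlap between the doses. Counting error was not separated from the spread between rats. Gene lists and markers, which need names, were not analysed here.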

Additional observations from a re-analysis of the deposited data

Results flagged for a closer look

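In 25 sets of 5 libraries, the reported values of each library and the 4 named transcripts by dose, no library stood apart from its group by Dixon's test, where chance alone gives about 1 in 20.

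The dose effect differed between 24 and 8 h for 1334 transcripts and between liver and kidney for 149, by the interaction tests of edgeR. For ENSRNOT00000008840 the effect at 24 h was lower than that at 8 h by −1.51 on the log2 scale (adjusted p = 0.00822, edgeR). For ENSRNOT00000071487 the fitted difference was 9.92 (adjusted p = 0.00765, edgeR), a value that depends on the prior count, since the transcript had 0 counts after the low dose at 24 h. Both lost the call without MS-9.

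Genomic intervals were outside the main test. With all targets in the fit, 369 of 7482 intervals tested were called (4.93%), 196 higher and 173 lower after the high dose, by edgeR.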

How the results depend on the processing

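No paired analysis was possible because the labels give no replicate numbers or pairs of rats.

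No fold change of a named transcript and no difference between the doses in a library measure changed sign under the alternatives run. The balance of the calls turned around with limma on TPM, from 472 higher and 656 lower to 480 and 339 on log2(TPM + 1) and 705 and 390 on log2(TPM + 0.1). In kidney, the liver-restricted transcripts called lower in liver changed from a median log2 fold change of −0.45 to 0.17 without MS-37, which was chosen after seeing the data. The main limits are 5 rats a dose, the weight of single libraries, and transcripts without gene names. The median SE of a log2 fold change was largest, at 0.37, for transcripts below 1 TPM, and the part of depth in this was not tested. The cause of each change below was not tested, except that fewer libraries gave less power by construction.

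Under the alternatives set first, the number called (1128; 472 higher, 656 lower) was 2722 (1190 and 1532) without a limit on the fold change and 463 (70 and 393) with all 15 liver libraries of 24 h in one fit. With the doubted vehicle library MS-1 left out of that fit it was 1111. DESeq2 gave 1513 calls, 2283 for the time difference, 767 for the organ difference, and, chosen after seeing the data, 793 for liver at 8 h and 312 for kidney at 24 h.

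Leaving out a library gave 629 to 1455 calls, 239 to 607 higher and 390 to 848 lower, 857 to 1504 for the time difference (lowest without MS-26), 52 to 317 for the organ difference (lowest without MS-6, highest without MS-91), 97 to 512 for liver at 8 h, and 13 to 166 for kidney at 24 h.

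The alternatives in this paragraph were chosen after seeing the data. Libraries numbered up to 10 and above 20 alone gave 0 calls, 0 higher and 0 lower. Without MS-6 and MS-26 the calls were 291 (68 higher, 223 lower). The share of liver-restricted transcripts called lower was 37.1% with DESeq2, against 5.05% of all transcripts, and 22.3% with no filter, against 2.12%. With limma it was 17.7% on log2(TPM + 1) (all: 1.98%) and 17.9% on log2(TPM + 0.1) (all: 2.28%). Without a fold limit it was 39.6% (all: 8.96%), and with all 15 libraries 16.5% (all: 2.24%). With the interval share as a term it was 33.1% (all: 5.16%), and without MS-6 and MS-26 9.98% (all: 1.27%). Single libraries left out gave 14.6 to 33.9% (all: 2.24 to 4.87%). The share of transcripts low in liver called higher was 11.8% with DESeq2, against 3.795% of all transcripts, and 3.35% with no filter, against 1.39%. With a filter of 5 counts in 47% of samples it was 6.97% (all: 2.49%), and with limma on log2(TPM + 1) 6.82% (all: 2.81%). Without a fold limit it was 11.9% (all: 6.96%). With all 15 libraries it was 1.90% (all: 0.399%), and without MS-1 in that fit 6.61% (all: 2.195%). With the set of library numbers (up to 10 or above 20) as a term it was 7.16% (all: 2.52%). Without MS-6 and MS-26 it was 1.18% (all: 0.387%). Single libraries left out gave 3.94 to 10.5% (all: 1.37 to 3.48%). The share of transcripts called higher that were above 0 at 8 h was 83.5% with limma on log2(TPM + 0.1), 70.4% without a fold limit, 93.7% with all 15 libraries, and 86.2% without MS-6 and MS-26, and 86.5 to 90.1% leaving out a library. With a 5-fold limit, the TPM share of transcripts low in liver differed by 1.11 points (exact permutation p = 0.0714, n = 5 each).

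For the named transcripts, the interval share as a term and the fit of all 15 libraries were set first. With the interval share as a term, ENSRNOT00000001876 and ENSRNOT00000008840 lost the call (adjusted p = 0.0129 and 0.014, edgeR) at log2 fold changes of −3.23 and −1.79. With all 15 libraries ENSRNOT00000073951 lost it at 1.27 (adjusted p = 0.0264, edgeR) and ENSRNOT00000071487 did too (adjusted p = 0.0163). Over all alternatives the adjusted p-values of the 4 were at most 0.16.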
